A study of Mus musculus with 17 samples.

Results

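The integrins, selectins and homing adhesion genes described here are 30 mouse genes chosen by name: 15 integrin α subunits, 8 integrin β subunits, P-selectin and its ligand PSGL-1 (Selp, Selplg), Cd44, and the immunoglobulin-type adhesion receptors Vcam1, Icam1, Icam2 and Alcam. A gene was read through the non-control probes that carry its name on the array, and where several probes did, through the one with the highest mean over all arrays. In this way 29 of the 30 genes were found, on 70 probes, among 28090 gene names in all; Itgad had no probe of that name. Of the 29, 6 had 1 probe and 23 had several. The mRNA was read on 17 single-color arrays of 6 populations sorted from the bone marrow of female C57Bl/6 mice of 6 to 8 weeks, with 10 to 20 mice pooled for a replicate: 2 arrays of Long-Term HSCs (LT-HSC) and 3 each of Short-Term HSCs (ST-HSC), Multipotent Progenitors (MPP), Common Myeloid Progenitors (CMP), Granulocyte-Monocyte Progenitors (GMP) and Megakaryocyte-Erythroid Progenitors (MEP). All cells were untreated, depleted of cells carrying lineage antigens (B220, CD3, GR-1, Ter119) and enriched for c-kit. LT-HSC, ST-HSC and MPP, together the HSC subsets, were Sca1+ and were told apart by CD34 and FLT3 (negative for both, CD34+ FLT3-, and positive for both). CMP, GMP and MEP, the myeloid populations, were Sca1- cells sorted separately by CD34 and the Fcγ receptor, at intermediate levels of both, positive for both and negative for both. No antibody of these gates was against a product of the 30 genes.

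Integrins are heterodimers of 1 α and 1 β chain that hold blood cells to matrix proteins and to counter-receptors on other cells, and the pairing decides the ligand. In the marrow, α4 integrins bind VCAM-1 and fibronectin, and LFA-1 (Itgal with Itgb2) binds the ICAMs. Selectins and their sugar-bearing ligands let circulating cells roll on vessel walls before integrins arrest them, and CD44 binds hyaluronan. Stem cell homing after transplantation draws on several of these molecules.

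The values are log2 intensities after quantile normalization, and a difference of 1 on this scale is a 2-fold difference in intensity. A level is that of a probe and is compared only with the same probe in other populations. Tests are those of limma fitted to all 28090 gene names, and a gene passed at a Benjamini-Hochberg adjusted p under 0.05. Nothing in the labels says more about how pools differed. The p-values measure the spread between arrays of a population. For every population but LT-HSC, that spread mixes pools with the scanning runs and slides described below. In bulk samples such as these, fewer cells of a type and less RNA per cell cannot be told apart.

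The arrays were not alike. The share of spots well above background ran from 41.4% to 70.1%, and the 75th percentile of the intensity was 53.1 on the unnumbered LT-HSC array against 243 to 534 on the other 16. The other LT-HSC array is labelled as a pool of replicates. The file headers place the arrays in 3 scanning runs, each of 1 scanner and 1 year. Run 1 holds CMP, GMP and MEP, run 2 holds a single array of every population but LT-HSC, and run 3 holds the other ST-HSC and MPP arrays and both LT-HSC arrays, which are alone on their slide. GMP and MEP thus met in 2 runs, as did ST-HSC and MPP, whereas HSC subsets and myeloid populations met only in run 2. Markers of the sorted populations moved in the direction of the labels between the sides compared. All 7 HSC markers were higher in the HSC subsets, and all 6 MEP markers were lower in GMP than in MEP. All 7 GMP markers found were higher in GMP than in MEP, among them Fcgr3, a gene of the sorting gate. The markers were not confined to the labelled population. The mean log2 intensity of the GMP markers was 13.19 in ST-HSC and 12.55 in CMP. That of the MEP markers was 11.35 in LT-HSC and 11.05 in CMP. Of 8 mature neutrophil genes, 7 or 8 were well above background on every array, with a summed intensity of 268299 to 565224 in ST-HSC, 354794 to 563143 in LT-HSC and 38513 to 289602 in the other 4.

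Over the 6 populations, 22 of the 29 adhesion genes differed by the moderated F-test, against 40.2% of all gene names. The 7 that did not pass were Itga2, Itga3, Itga7, Itgb1, Itgb2, Itgb6 and Itgb8. Probes of 17 genes were well above background on every array, those of 11 on some, and that of Itga2, the collagen receptor chain of platelets, on none. MEP had the lowest mean for 18 of the 29 genes, and LT-HSC had the highest mean for 7. No share of all gene names is given beside these counts. The 7 include Itga2, and also Itgae and Itgb8. These last read 9.36 and 9.19 on the unnumbered LT-HSC array, against 6.02 and 6.55 on the pooled one. The plot of the members by array shows Itgb5, Itgal, Selplg, Icam2 and Alcam lowest in MEP and Itga4 and Itga5 highest there.

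**Figure D1:**
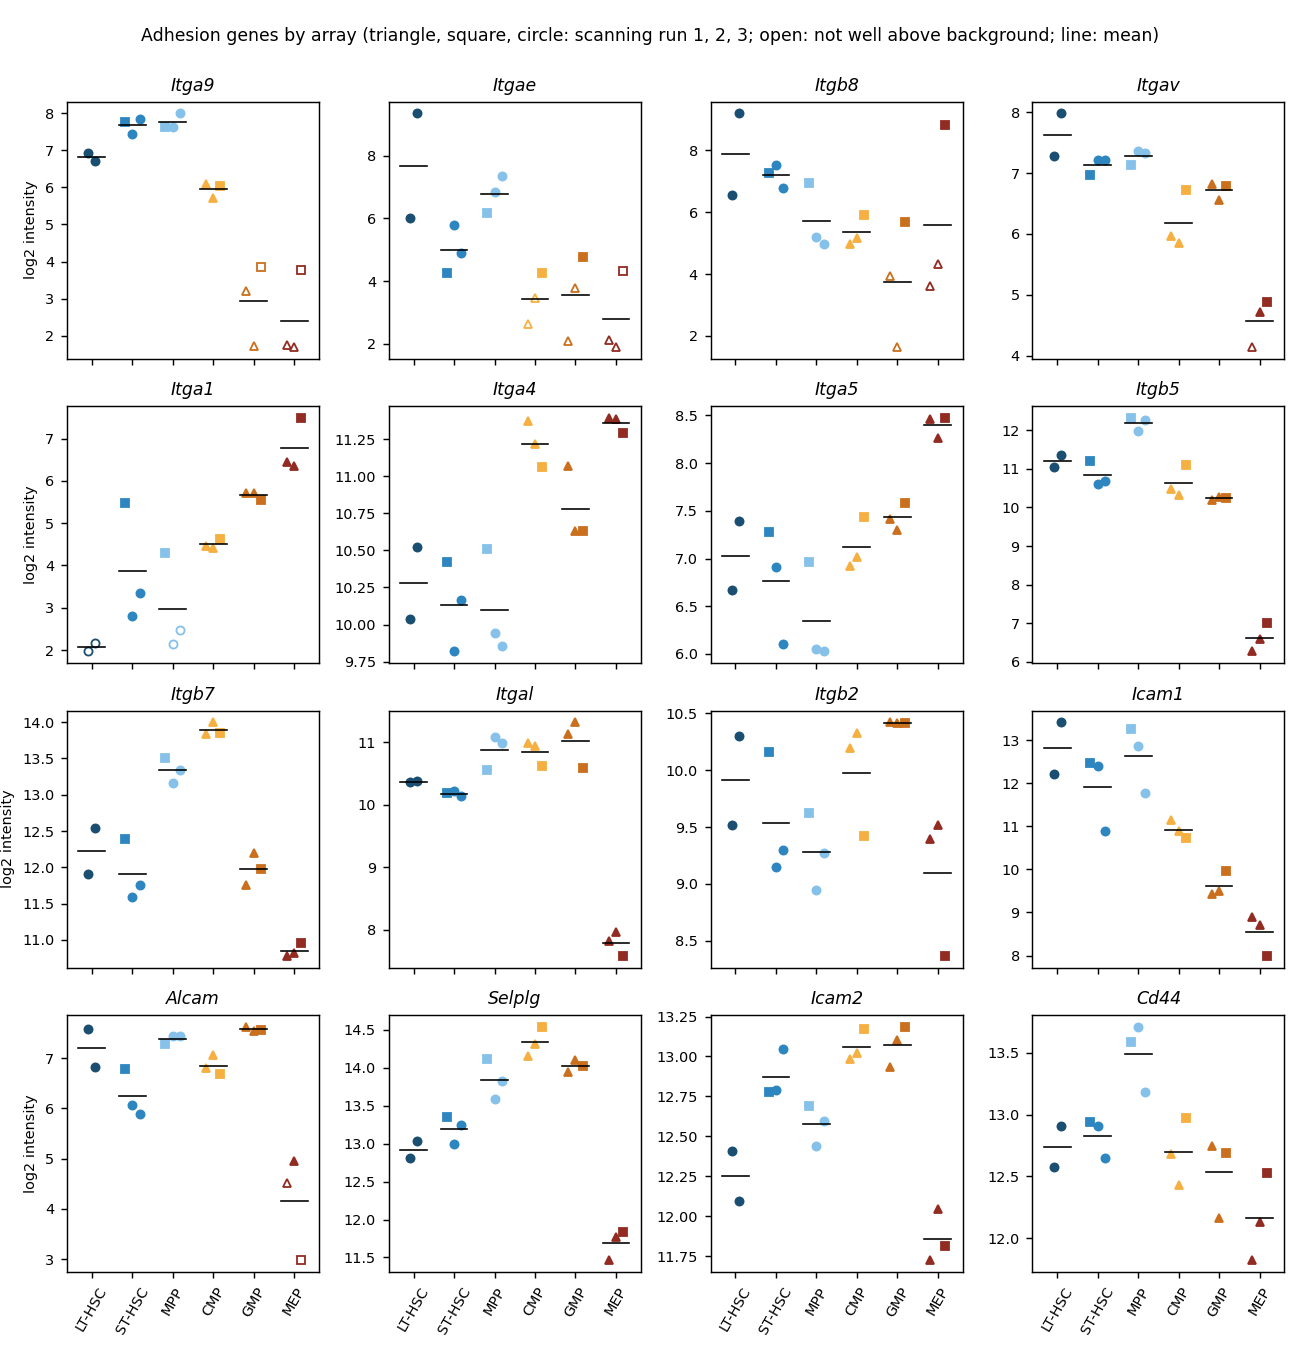
Log2 intensity (quantile-normalized) of 16 adhesion genes on each of the 17 arrays, by population; triangles, squares and circles are scanning runs 1, 2 and 3, open symbols are arrays where the probe was not well above background, and lines are population means. Itgb5, Itgal, Selplg, Icam2 and Alcam are lowest in all 3 MEP arrays, Itga9 is at 6.71 or more in every HSC subset array and at 6.10 or less in every myeloid one, and Itga4 is higher in all 9 myeloid arrays than in any of the 8 HSC subset arrays.

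The upstream sequences of the genes lower in MEP than in GMP are shown first because these genes form the group with the most members moving one way between 2 populations measured in the same runs. RefSeq promoter sequences (GRCm38.p6) were at hand for 19 of the genes, among them 6 of the 13 that were higher in GMP. The 250 bases before the transcription start of Alcam, Itgam, Itgav and Itgb5 are printed in the direction of transcription, with the letters GAGGAA, the core bound by the ETS factor PU.1, in capitals on either strand (TTCCTC is its reverse complement). The Alcam stretch lies at chr16:52453082-52453331 on the minus strand, that of Itgam at chr7:128062390-128062639, that of Itgav at chr2:83724147-83724396 and that of Itgb5 at chr16:33829415-33829664, all 3 on the plus strand.
Alcam: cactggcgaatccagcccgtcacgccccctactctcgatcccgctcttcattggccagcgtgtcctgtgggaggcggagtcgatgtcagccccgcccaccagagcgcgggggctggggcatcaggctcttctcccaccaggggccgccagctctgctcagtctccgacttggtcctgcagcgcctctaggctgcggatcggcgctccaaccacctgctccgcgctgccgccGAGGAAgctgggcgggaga
Itgam: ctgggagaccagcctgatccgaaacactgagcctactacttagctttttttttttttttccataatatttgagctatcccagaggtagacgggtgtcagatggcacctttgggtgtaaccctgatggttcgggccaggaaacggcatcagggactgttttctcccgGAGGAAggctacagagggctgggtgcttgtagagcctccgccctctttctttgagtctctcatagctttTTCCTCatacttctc
Itgav: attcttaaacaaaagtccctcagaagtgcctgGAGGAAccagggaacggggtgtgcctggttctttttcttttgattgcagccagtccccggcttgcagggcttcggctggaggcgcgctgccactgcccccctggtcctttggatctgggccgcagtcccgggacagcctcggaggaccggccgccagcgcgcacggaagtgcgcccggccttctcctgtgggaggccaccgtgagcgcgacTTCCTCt
Itgb5: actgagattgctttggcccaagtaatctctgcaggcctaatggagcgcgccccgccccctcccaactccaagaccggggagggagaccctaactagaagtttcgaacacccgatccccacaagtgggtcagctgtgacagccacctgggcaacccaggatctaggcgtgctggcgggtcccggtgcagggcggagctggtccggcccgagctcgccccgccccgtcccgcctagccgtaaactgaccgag
GAGGAA was present in 3 of the 6 stretches (Alcam, Itgam, Itgav) and absent as letters from those of Itgb5, Itgb7 and Selp. Of the 19 genes with a sequence, 8 held GAGGAA, among them Itga5, the 1 gene that passed as higher in MEP. Of all 32851 promoter stretches of this length, 23.3% held it. The GATA motifs AGATAA and TGATAA, searched on both strands, were in none of the 6, in 2 of the 19 genes and in 16.6% of all stretches. A match is a description of letters and not a binding site.

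In the comparison of HSC subsets with myeloid populations, the main axis of the study, 18 genes passed the test. Of the 29 genes, 15 were higher in the HSC subsets, where 21.7% of all gene names were, and 3 were lower, where 19.1% were. The median difference over the 29 genes was 0.56, against 0.04 over all gene names. Markers of other cell types also differed on this axis: 7 of 8 T or NK cell genes were higher in the HSC subsets, as were 5 of 7 B cell, 4 of 6 dendritic (Flt3, a sorting antigen, among those listed), 5 of 9 monocyte or macrophage, 4 of 8 mature neutrophil and 4 of 6 endothelial genes, with 1 endothelial and 1 monocyte gene lower. The mean log2 intensity of the T or NK genes did not overlap, at 6.34 to 7.98 on the HSC subset arrays and 4.73 to 6.17 on the myeloid arrays, while their summed intensity did (5620 to 20547 and 1529 to 58686, highest in GMP). The summed intensity of the dendritic genes was 5409 to 12846 and 4340 to 10523. The part of such cells in the values of Itgae, Itgax, Itgam and the other genes was not tested. Of the 14 α subunits with a probe, 8 were higher and 3 lower. Of the 8 β subunits 3 were higher, and of the 7 other receptors and ligands 4 were. The genes with the largest differences were Itga9, Itgae, Icam1, Itgb5 and Itgb8 on the higher side and Itga1, Itga4 and Itga5 on the lower.

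Itga9 encodes the α9 chain, which pairs with β1 and binds tenascin, osteopontin and VCAM-1. It read 6.93 and 6.71 in LT-HSC, 7.45, 7.84 and 7.77 in ST-HSC and 7.63, 8.0 and 7.63 in MPP. In CMP it read 6.04, 6.10 and 5.70, in GMP 3.86, 3.21 and 1.73 and in MEP 3.78, 1.74 and 1.70. Every HSC subset array was above every myeloid array, CMP stood between, and no GMP or MEP array was well above background. The difference was 3.66 ± 0.32 (SE, 8 against 9 arrays, limma adjusted p = 2.09e-06), and 3.14 within run 2. Its size rests on GMP and MEP readings near background: it was 1.19 with normexp, and the second probe differed by 1.25 (adjusted p over all probes = 0.00763).

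Itgav, the αv chain of the receptors for vitronectin and other RGD-bearing ligands, was the other gene with no overlap on the higher side. It ran from 6.97 to 7.99 (median 7.25) on the HSC subset arrays and from 4.14 to 6.82 (median 5.96) on the myeloid arrays. The difference was 1.52 ± 0.15 (limma adjusted p = 5.99e-06) and 0.93 within run 2. It was 0.68 with normexp and 0.73 with the mean of all 6 probes, of which 2 passed, both higher in the HSC subsets; the other 4 were well above background on at most 1 array. Without overlap between the 2 sides, 2 of the 29 genes were higher in the HSC subsets and 1 was lower, against 3.08% and 4.08% of all gene names.

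Itgb5, a partner of αv, read 11.05 and 11.35 in LT-HSC, 10.61, 10.68 and 11.21 in ST-HSC and 11.98, 12.27 and 12.32 in MPP. It read 11.10, 10.49 and 10.33 in CMP, 10.23, 10.19 and 10.28 in GMP and 7.0, 6.27 and 6.60 in MEP. All MPP arrays were above all others, all MEP arrays far below, and the CMP arrays overlapped those of LT-HSC and ST-HSC. The difference between the 2 sides was 2.24 ± 0.14 (limma adjusted p = 1.15e-07), and 2.32 within run 2.

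Icam1, the LFA-1 and Mac-1 ligand known for its induction by inflammatory signals, read 12.21 and 13.42 in LT-HSC, 12.40, 10.90 and 12.46 in ST-HSC and 12.86, 11.77 and 13.27 in MPP. It read 10.72, 11.14 and 10.90 in CMP, 9.95, 9.43 and 9.49 in GMP and 7.99, 8.89 and 8.72 in MEP. The 2 sides overlapped only through the lowest ST-HSC array and the CMP arrays, and CMP, GMP and MEP did not overlap each other. The difference was 2.76 ± 0.29 (limma adjusted p = 6.99e-06) and 3.31 within run 2. A second Icam1 probe, dimmer over all arrays, differed by 0.25 (adjusted p over all probes = 0.697).

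Itgae, the αE chain that pairs with β7 and binds E-cadherin, varied far more within populations. It read 6.02 and 9.36 in LT-HSC, 5.78, 4.90 and 4.26 in ST-HSC and 6.86, 7.34 and 6.19 in MPP. It read 4.26, 2.63 and 3.46 in CMP, 4.79, 2.10 and 3.78 in GMP and 4.32, 2.12 and 1.90 in MEP, and of these 9 arrays 2 were well above background. The highest value was that of the dim LT-HSC array. The difference was 3.23 ± 0.55 (limma adjusted p = 0.000397) but 0.77 within run 2, and with the run as a block in the fit it was 1.26 (adjusted p = 0.387).

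Itgb8, which pairs with αv and takes part in activating TGF-β, was the least stable of the genes that passed. It read 6.55 and 9.19 in LT-HSC, 7.52, 6.77 and 7.27 in ST-HSC, 5.20, 4.96 and 6.94 in MPP and 5.91, 4.95 and 5.17 in CMP. In GMP it read 5.69, 3.93 and 1.65 and in MEP 8.80, 3.63 and 4.33, each time highest in run 2. The difference of 2.02 ± 0.76 (limma adjusted p = 0.048) was 0.30 within run 2 and 0.89 with the run as a block (adjusted p = 0.671). Leaving out any 1 of 14 arrays also ended the call, with differences of 1.58 to 2.14 and adjusted p from 0.0555 to 0.155.

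On the lower side, Itga4 encodes the α4 chain of VLA-4, the receptor for VCAM-1 and fibronectin. It read 10.04 and 10.52 in LT-HSC, 9.82, 10.16 and 10.42 in ST-HSC and 9.94, 9.85 and 10.51 in MPP. It read 11.06, 11.38 and 11.22 in CMP, 10.63, 11.07 and 10.63 in GMP and 11.29, 11.40 and 11.39 in MEP. No HSC subset array reached the lowest myeloid array, and the difference was -0.95 ± 0.13 (limma adjusted p = 7.03e-05). Within run 2 it was -0.53, and with the run as a block -0.42 (adjusted p = 0.16).

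Itga5, the α5 chain of the classical fibronectin receptor, read 6.67 and 7.39 in LT-HSC, 6.91, 6.10 and 7.28 in ST-HSC and 6.05, 6.03 and 6.97 in MPP. It read 7.43, 6.93 and 7.02 in CMP, 7.58, 7.41 and 7.30 in GMP and 8.48, 8.46 and 8.26 in MEP. The MEP arrays stood above all 14 others. The difference of -0.94 ± 0.19 (limma adjusted p = 0.00151) was -0.71 within run 2 and -0.45 with the run as a block (adjusted p = 0.285).

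Itga1, a collagen and laminin receptor chain, read 1.97 and 2.16 in LT-HSC, 2.81, 3.35 and 5.47 in ST-HSC and 2.14, 2.47 and 4.28 in MPP, with 4 of these 8 arrays well above background. It read 4.62, 4.45 and 4.41 in CMP, 5.54, 5.72 and 5.71 in GMP and 7.49, 6.44 and 6.36 in MEP. The ST-HSC array of run 2 was above every CMP array. The difference was -2.67 ± 0.38 (limma adjusted p = 9.09e-05), -1.01 within run 2 and -1.22 with the run as a block (adjusted p = 0.0147). With normexp it was -0.58. All 3 probes of the gene were lower in the HSC subsets, the other 2 by 2.34 and 1.70 (adjusted p over all probes = 2.77e-08 and 9.32e-08).

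The other 10 genes that passed on the higher side were Itgax (1.52), Selp (1.2), Itgam (1.01), Itgb4 (1.0), Itga3 and Itga6 (0.89 each), Alcam (0.75), Itgal (0.59) and Cd44 (0.56), beside Itgav. Itgax and Itgam are the α chains of the myeloid β2 integrins, Itgb4 and Itga6 form a laminin receptor, and Itga3 is a further laminin receptor chain. With the mean of all probes Selp (0.23), Itgam (0.16), Itga6 (0.26) and Cd44 (0.27) did not pass, nor did Cd44 with the 75th percentile (0.44). For Alcam and Itgal the difference rested on MEP, since their highest mean was in GMP (7.57 and 11.02). Itgal was also higher in CMP (10.85) than in LT-HSC (10.37) or ST-HSC (10.18). Low MEP means weighed on Selp and Itga6 too (4.17 and 9.21). Selp was higher in CMP (7.45) than in LT-HSC (6.64) or MPP (6.78). Itga6 was higher in CMP (10.90) and GMP (10.68) than in MPP (10.58). Without the pooled LT-HSC array the difference of Alcam was 0.62 and did not pass (limma adjusted p = 0.0854). It did not pass either without both LT-HSC arrays (0.62) or with the replicate number as a block (0.79), under which Itga3 (0.80) and Itgb8 (1.93) lost their calls too. With the run as a block, 9 genes passed. Of all 28090 gene names, 4520 passed in that fit (2353 higher, 2167 lower), against 11438 without the block. Of the 18 genes, 8 kept their call (Itga1, Itga9, Itgal, Itgav, Itgb4, Itgb5, Icam1 and Alcam). A further 9 lost it, and Itga3 turned to -0.20 (limma adjusted p = 0.731). Itga2, which is not above background on any array, was added. Run 2 holds both sides, with 2 against 3 arrays, and there the differences of some genes that lost their call were close to those over all arrays (Itgax 1.75, Itgam 1.06, Selp 0.97, Cd44 0.53), while those of others were smaller (Itgae 0.77, Itga4 -0.53, Itga6 0.50, Itgb8 0.30).

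**Figure D2:**
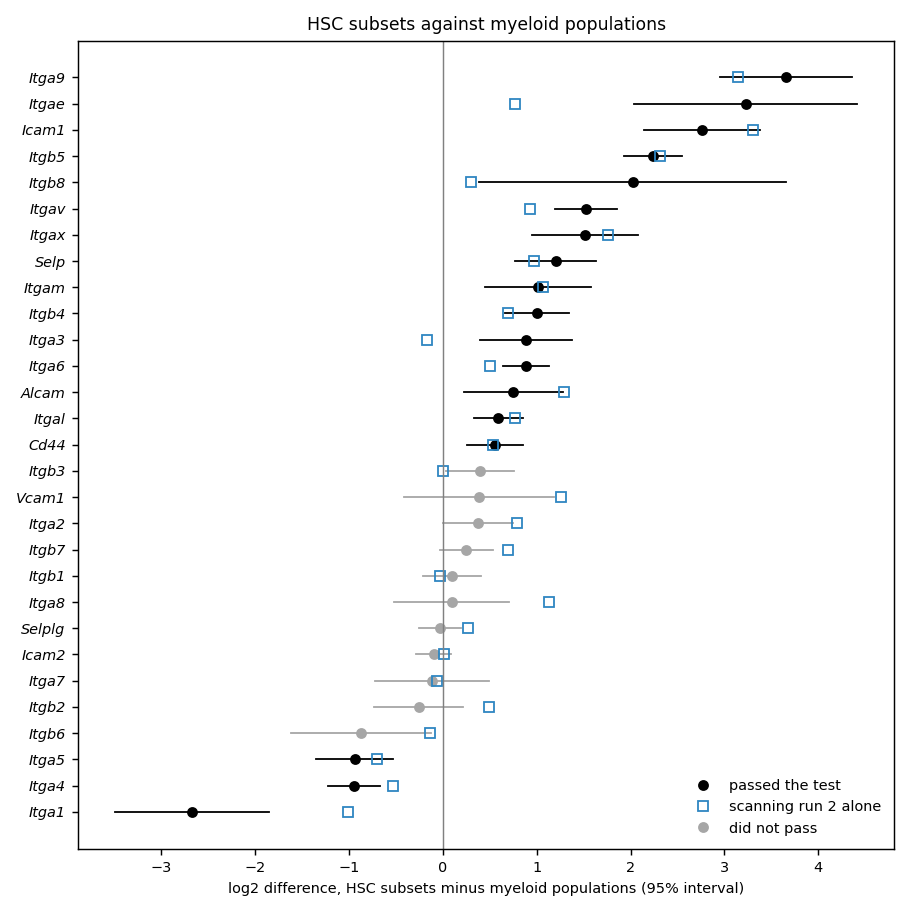
Log2 difference of the 29 adhesion genes, HSC subsets minus myeloid populations, over all 17 arrays with its 95% interval (filled circles, black where the test was passed), and within scanning run 2 alone (open squares, 2 against 3 arrays). Itga9, Icam1, Itgb5 and Itgax keep a run 2 difference above 1.7, while Itgae, Itgb8 and Itga3 lie near or below 0.8 there.

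Several genes had a second probe that read otherwise. For Itga6, the laminin receptor chain used to enrich stem cells, the brightest probe was higher in the HSC subsets by 0.89 and another bright one lower by 0.83, and both passed over all probes (adjusted p = 4.12e-05 and 0.0325). For Itgb1, the common β1 chain, the brightest probe differed by 0.10 (limma adjusted p = 0.609) and a dimmer one by -1.39 (adjusted p over all probes = 5.59e-05). The second probes of Selp and Itgam differed by -0.74 and -0.68 and did not pass. That of Selplg differed by -1.09 and passed over all probes, while its brightest probe differed by -0.03. Itga8 and Itgb6 did not pass here, but each had 1 other probe that passed as higher in the HSC subsets.

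Between the 2 sorted branches of the myeloid tree, GMP and MEP, the difference was larger. The genes that passed were nearly all higher in GMP. Of the 29 genes, 13 were higher in GMP, where 10.5% of all gene names were, and 1 was lower, where 8.51% were. The median difference was 1.09 over the 29 genes against -0.07 over all gene names, with 20 genes positive and 9 negative. More genes were lower in GMP under several other settings, given in the closing section. The genes higher in GMP were 4 of the 14 α subunits (Itgal, Itgav, Itgam, Itga6), 4 of the 8 β subunits (Itgb5, Itgb3, Itgb2, Itgb7) and 5 of the 7 other receptors and ligands (Alcam, Selplg, Selp, Vcam1, Icam2). All 13 were higher in GMP in run 1 and in run 2 taken alone, and in all 13 the 3 GMP arrays lay above the 3 MEP arrays. Over all 29 genes, 17 were higher in GMP without overlap, against 14.6% of all gene names, and 3 lower, against 19.9%. With the replicate number as a block, 16 genes were higher and 2 lower, the added calls being Icam1 (1.09, limma adjusted p = 0.012), Itgb4 (0.58, 0.00633) and Itga8 in GMP and Itgb1 (-0.45, 0.012) in MEP. No array of either population read Itga8 well above background, so no size is given for it. With this block 3454 of all gene names were higher in GMP and 3341 lower, against 2940 and 2391 without it. Markers of other cell types differed as well: 5 of 6 mast or basophil genes (median 5.30) and 3 of 3 eosinophil genes (median 3.31) were higher in GMP, and 6 of 6 mature erythroid genes were lower (median -4.93). The summed intensity of the mast or basophil genes was 33997 to 51694 in GMP and 242 to 888 in MEP, and that of the erythroid genes 506 to 1796 and 26286 to 68944. Their part in the adhesion gene values was not tested.

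Itgb5, whose array values stand above, differed most, by 3.61 ± 0.24 (3 against 3 arrays, limma adjusted p = 2.17e-07), or 12.2-fold. Alcam, a receptor for CD6 and for itself, read 7.56, 7.62 and 7.53 in GMP and 2.98, 4.52 and 4.96 in MEP, where 1 of 3 arrays was well above background. In the other populations it lay between 5.88 and 7.58, so that MEP stood apart from all of them. The difference was 3.42 ± 0.40 (limma adjusted p = 3.05e-05), and its size rests on MEP readings near background, being 1.3 with normexp.

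Itgal, the αL chain of LFA-1, read 10.59, 11.14 and 11.32 in GMP and 7.58, 7.82 and 7.96 in MEP. It lay between 10.14 and 11.08 in LT-HSC, ST-HSC, MPP and CMP, none of which overlapped MEP. The difference was 3.23 ± 0.20 (limma adjusted p = 1.43e-07), or 9.37-fold, and the second probe differed by 3.12. Its β2 partner, Itgb2, read 10.41, 10.42 and 10.42 in GMP and 8.37, 9.39 and 9.52 in MEP and differed by less, 1.32 ± 0.37 (limma adjusted p = 0.0202), with MEP overlapping every population but GMP. The call of Itgb2 was lost on leaving out any 1 of the GMP arrays (1.32 each time) or the run 2 MEP array (0.96).

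Itgb3, the β3 chain that forms the platelet fibrinogen receptor with Itga2b and a vitronectin receptor with αv, read 10.34, 10.46 and 9.98 in GMP and 7.58, 7.46 and 7.92 in MEP. The difference was 2.61 ± 0.28 (limma adjusted p = 1.26e-05), or 6.1-fold. A second, dimmer Itgb3 probe differed by -0.59 (adjusted p over all probes = 0.592), and the mean of both probes did not pass. Itga2b, not among the 30 genes, read 10.45 in GMP and 7.42 in MEP on average, a difference of 3.04 ± 0.53 (limma adjusted p = 0.000865).

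Selplg, the ligand through which myeloid cells roll on P-selectin, read 14.03, 13.95 and 14.11 in GMP and 11.83, 11.46 and 11.77 in MEP. Its level in all other populations lay between 12.81 and 14.54, above every MEP array. The difference was 2.34 ± 0.17 (limma adjusted p = 4.95e-07), or 5.07-fold, and the second probe differed by 2.22. Selp itself, a selectin of platelet granules and endothelium, read 6.31, 6.40 and 6.59 in GMP and was not well above background on any MEP array. It was at least 3.28-fold higher in GMP, which sets the GMP mean against the lowest signals well above background on the MEP arrays (limma adjusted p = 0.000218). With normexp, whose offset of 50 narrows differences of dim probes, the log2 difference was 0.66.

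Of the other genes higher in GMP, Itgav differed by 2.15 (0.79 with normexp and 0.72 with the mean of all probes), Vcam1 by 2.07, Itgam by 1.57, Itga6 by 1.47, Icam2 by 1.21 and Itgb7 by 1.12. Vcam1, better known as a ligand on stroma and macrophages than on progenitors, read 10.93, 10.58 and 9.73 in GMP and 7.04, 8.87 and 9.14 in MEP. It was also 9.10 or more on every LT-HSC and ST-HSC array and at most 8.87 on the MPP and CMP arrays. Genes of monocytes and macrophages moved with it in part: the summed intensity of 9 such genes was 4130 to 7272 in GMP, 641 to 826 in MEP, 3013 to 6148 in ST-HSC and 1719 to 1992 in MPP, but 3593 to 5856 in CMP and 1017 to 1542 in LT-HSC. Between GMP and MEP, 3 of the 9 passed, all higher in GMP. The part of such cells in the Vcam1 values was not tested. Neither of the other Vcam1 probes passed: one, well above background on 7 arrays, differed by 2.07, and the other, well above background on none, by -0.87. The call of Vcam1 was lost without GMP replicate 1 (1.98), the run 2 GMP array (1.81) or the run 2 MEP array (1.41), and that of Itgam without GMP replicate 1 (1.53) or the run 2 GMP array (1.46).

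Itga5 was the 1 gene that passed on the MEP side. It differed by -0.97 ± 0.32 (limma adjusted p = 0.0495), with all MEP arrays above all GMP arrays, and by -1.0 in run 1 and -0.89 in run 2. The call was lost on leaving out any 1 of 12 of the 17 arrays, among them every GMP and MEP array, with differences of -1.04 to -0.90. Itga4, its α4 relative, differed by -0.58 ± 0.22 without overlap and did not pass (adjusted p = 0.0854). Itga1 differed by -1.11 on its brightest probe (adjusted p = 0.307) and by 4.55 and 3.91 on the other 2, which passed over all probes (adjusted p = 2.36e-08 and 2.33e-08), so its direction depends on the probe.

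**Figure D3:**
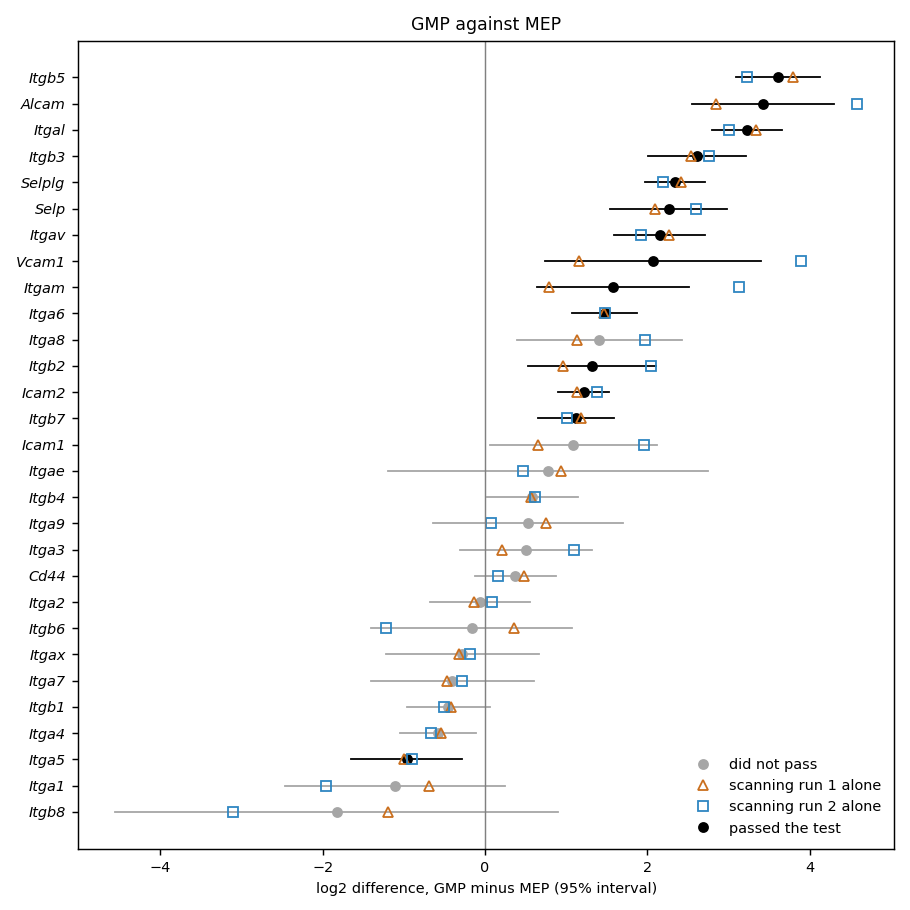
Log2 difference of the 29 adhesion genes, GMP minus MEP, with its 95% interval (filled circles, black where the test was passed), and within scanning run 1 (triangles, 2 against 2 arrays) and run 2 (squares, 1 against 1). All 13 genes that were higher in GMP and passed have both run values above 0.7, and Itga5 alone passed on the other side.

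At the step from ST-HSC to MPP, fewer adhesion genes passed than in the comparisons above, though a larger share than of all gene names. Of the 29 genes, 3 were higher in MPP (Itgb5, Itgb7, Itga8), against 1.48% of all gene names, and 3 were lower (Itgb3, Selp, Itga6), against 1.2%. The median difference over the 29 genes was -0.03, against 0.01 over all gene names. With the replicate number as a block, 5 were higher and 3 lower. Itgal (0.69, limma adjusted p = 0.0275), Itgax (1.69, 0.00493) and Selplg (0.65, 0.0274) were added and Itga8 was lost. Of all gene names, 621 were higher and 459 lower in that fit, against 416 and 337 without the block. More genes also passed with the slide as a random block, as given in the closing section.

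Itgb7, the partner of α4 in the receptor for the gut addressin MAdCAM-1, read 11.59, 11.75 and 12.39 in ST-HSC and 13.16, 13.35 and 13.51 in MPP. It read 13.84, 13.84 and 14.00 in CMP, its highest population, 11.91 and 12.54 in LT-HSC, 11.97, 11.76 and 12.20 in GMP and 10.96, 10.78 and 10.82 in MEP. MPP and CMP thus lay above all other arrays and MEP below them. The difference of MPP from ST-HSC was 1.42 ± 0.22 (3 against 3 arrays, limma adjusted p = 0.00234), 1.11 in run 2 and 1.58 in run 3. Itgb5 differed by 1.36 ± 0.24 (limma adjusted p = 0.00626), 1.12 in run 2 and 1.48 in run 3.

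Itga8, the chain of an RGD receptor known from mesenchyme, was dim. It read 2.56, 3.06 and 3.67 in ST-HSC, where 1 of 3 arrays was well above background, and 4.88, 5.11 and 5.12 in MPP, where all 3 were. Of the other 11 arrays, 1 of CMP was well above background. The difference of 1.94 ± 0.47 (limma adjusted p = 0.0475) rests on ST-HSC readings near background and was 0.29 with normexp. Its call was lost with the 75th percentile (1.61), the replicate number as a block (1.94) or the mean of all probes (1.29), and on leaving out any 1 of 12 arrays (1.67 to 2.02).

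The 3 genes lower in MPP are all known from platelets and their precursors. Itgb3 read 11.12, 11.02 and 10.78 in ST-HSC and 9.20, 8.45 and 9.10 in MPP, a difference of -2.06 ± 0.28 (limma adjusted p = 0.00108). Selp read 8.43, 8.40 and 7.89 in ST-HSC and 7.07, 7.23 and 6.03 in MPP, a difference of -1.46 ± 0.33 (limma adjusted p = 0.0333). Itga6 read 11.74, 11.82 and 11.40 in ST-HSC and 10.74, 10.68 and 10.31 in MPP, a difference of -1.08 ± 0.19 (limma adjusted p = 0.00588). None of the 3 overlapped between the populations, and in run 2 and run 3 alone the differences were -1.68 and -2.24, -1.86 and -1.26, and -1.09 and -1.07. The call of Selp was lost on leaving out any 1 of 6 arrays, among them ST-HSC replicates 2 and 3 and 2 of the MPP arrays, with differences of -1.61 to -1.09, and with the 75th percentile (-1.43) or the mean of all probes (-1.33). Itgb3 lost its call with the mean of all probes (-1.18), its second probe differing by -0.30.

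A list of 8 megakaryocyte and platelet genes moved with these 3. Between ST-HSC and MPP, 6 of the 8 passed and all 6 were lower in MPP, with a median of -3.05 over the list. Other lists moved the same way: 5 of 6 MEP markers were lower in MPP (median -2.55), as were 4 of 9 monocyte or macrophage genes, 3 of 6 mast or basophil genes and 2 of 7 GMP markers. Higher in MPP were 2 of 4 MPP markers (median 1.91), 2 of 6 dendritic and 2 of 7 B cell genes. The MPP and dendritic lists both hold Flt3, an antigen by which MPP was sorted from ST-HSC. Itga2b, the partner of β3 and 1 of the 8, read 10.15 in ST-HSC and 6.04 in MPP on average (difference -4.11 ± 0.53, limma adjusted p = 0.000795). The summed intensity of the list was 30606 to 34662 in ST-HSC, 1438 to 2833 in MPP, 10862 to 13157 in LT-HSC, 25955 to 59878 in CMP, 6072 to 11312 in GMP and 2977 to 3416 in MEP. Its defining gene Pf4 was well above background on all 17 arrays. The part of cells of this or another lineage in the values of Itgb3, Selp and Itga6 was not tested.

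**Figure D4:**
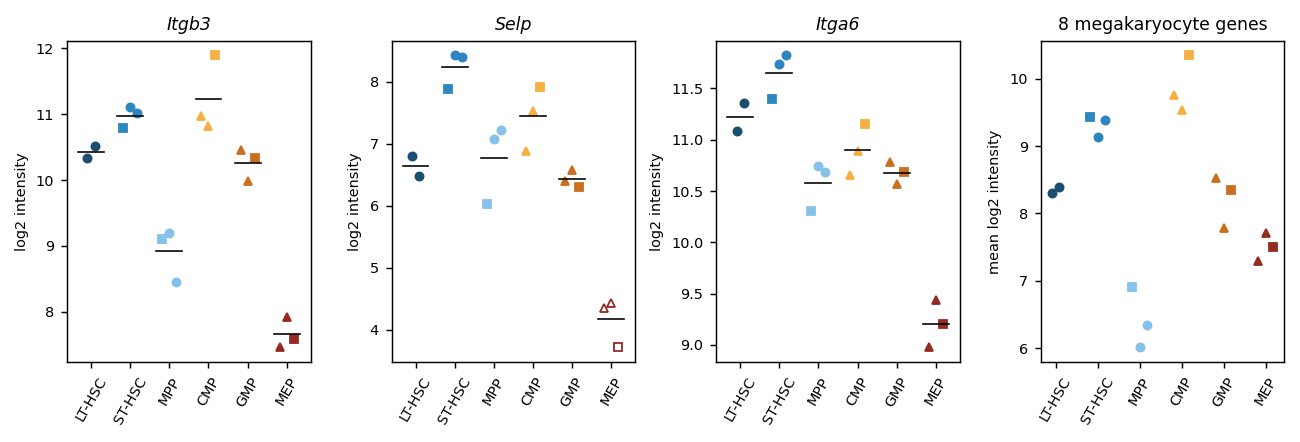
Log2 intensity of Itgb3, Selp and Itga6 on each array by population, and the mean log2 intensity of 8 megakaryocyte and platelet genes (right); symbols as for the scanning runs above, lines are population means. In all 4 panels ST-HSC lies above MPP and CMP above MEP without overlap.

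LT-HSC and ST-HSC differed in the fewest adhesion genes. None of the 29 was higher in LT-HSC, where 3.5% of all gene names were, and 2 were lower, where 1.08% were. At an unadjusted p under 0.05, 2 more genes were higher (Itgae and Itgb4) and 1 more lower (Itga1). The second Itgal probe was higher in LT-HSC by 1.11 and passed over all probes, while the brightest differed by 0.19. Selp read 6.80 and 6.48 in LT-HSC against 7.89 or more in ST-HSC, a difference of -1.59 ± 0.37 (2 against 3 arrays, limma adjusted p = 0.0309). Icam2, an LFA-1 ligand of vessels and blood cells, read 12.41 and 12.10 in LT-HSC and 12.79, 13.05 and 12.78 in ST-HSC, a difference of -0.62 ± 0.16 (limma adjusted p = 0.0475). Neither overlapped. Without the dim LT-HSC array both calls were lost, at -1.43 for Selp and -0.46 for Icam2 (limma adjusted p = 0.208 and 0.356). Selp also lost its call without ST-HSC replicate 2 (-1.50) or 3 (-1.51), and Icam2 on leaving out any 1 of 15 arrays. Both lost it with the 75th percentile and with the slide as a random block. With the replicate number as a block, Selp did not pass (-1.38, limma adjusted p = 0.0737). In that fit the pooled LT-HSC array is alone in its block, so LT-HSC is the dim array only, and the 3 genes it added (Itgae, Itgb4 and Itga1) rest on that 1 array. The slide that holds both LT-HSC arrays holds no other population. The 8 megakaryocyte and platelet genes had a median of -1.02 here, and 2 of them passed, both lower in LT-HSC. More of other lists were lower there: 4 of 6 mast or basophil genes (median -3.26, summed intensity 647 to 1182 in LT-HSC and 9788 to 11035 in ST-HSC) and 5 of 9 monocyte or macrophage genes (median -1.97). Others moved the opposite way, with 3 of 6 MEP markers (median 1.26), 2 of 6 dendritic and 2 of 7 B cell genes higher in LT-HSC. Their part in the values of Selp and Icam2 was not tested.

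In 4 genes no pairwise comparison passed in the reported fit, which used the brightest probe and no block: Itga2, Itga7, Itgb1 and Itgb6. Itga2 lay between 1.91 and 3.43 on all arrays and was not well above background on any. Itgb6, an epithelial partner of αv, was well above background on 1 ST-HSC array. Itga7, a laminin receptor chain of muscle, lay between 4.15 and 6.64. Itgb1 was well above background on all 17 arrays and lay between 8.41 and 9.47, with population means from 8.74 to 9.19. Its interval for HSC subsets minus myeloid populations was -0.21 to 0.41, and for GMP minus MEP it was -0.96 to 0.06. With the mean of all probes, the first of these differences was -0.53 and passed (limma adjusted p = 0.0209).

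Set side by side, the chains that form 1 receptor often had different orders of populations. For VLA-4, Itga4 and Itgb1 both had their highest mean in MEP, but Itgb1 did not pass the F-test. For the second α4 receptor, Itgb7 was highest in CMP and lowest in MEP. For LFA-1, both Itgal and Itgb2 were highest in GMP and lowest in MEP, while their ligands differed: Icam1 was highest in LT-HSC and lowest in MEP, and Icam2 was highest in GMP and lowest in MEP. For the αv receptors, Itgav was highest in LT-HSC, Itgb5 in MPP and Itgb3 in CMP, and all 3 were lowest in MEP. Itgax was highest in MPP at 9.79, 10.13 and 9.85, and lowest in GMP (6.64, 6.30 and 6.11), with MEP close to it (6.82, 6.71 and 6.35), whereas Itgam read 7.73, 7.58 and 7.2 in GMP. Cd44, the hyaluronan receptor, lay within 11.82 and 13.71 on all arrays, with the highest mean in MPP and the lowest in MEP. Neighbours in these orders often overlapped, as MPP, CMP and GMP did for Itgal and LT-HSC, ST-HSC and CMP for Cd44.

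Genes that work with these receptors were read through 4 further lists, whose counts stand against the same shares of all gene names: 21.7% higher and 19.1% lower in the HSC subsets, and 10.5% higher and 8.51% lower in GMP than in MEP. Of 32 genes of integrin activation and the adhesion complex, 8 were higher and 8 lower in the HSC subsets, and 11 were higher and 5 lower in GMP than in MEP (medians -0.00 and 0.30), the first of these near the share of all gene names in both directions. Parvb, an adaptor of integrin-linked kinase, was lower in the HSC subsets by 2.69 and Zyx (zyxin) higher by 1.78 (limma adjusted p = 3.72e-05 and 5.8e-08). Rasgrp2, the Rap1 activator that switches integrins on in platelets, was lower in the HSC subsets by 1.79 and higher in GMP than in MEP by 3.68 (limma adjusted p = 0.00328 and 0.0013). Nedd9, a docking protein of the FAK pathway, was not well above background in MEP and was at least 5.73-fold higher in GMP, and Tln2 (talin 2) was at least 1.28-fold higher.

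Of 30 other adhesion and homing receptors, 17 were higher and 4 lower in the HSC subsets (median 0.58), and 11 were higher and 3 lower in GMP than in MEP (median 0.31). F11r, Emcn and Jam3, membrane proteins shared with vessel endothelium, were higher in the HSC subsets by 4.81, 4.44 and 4.15 (limma adjusted p = 7.14e-10, 5.95e-10 and 3.15e-07). Cd93 was higher in GMP by 4.66 and Cd34 by 4.49, the latter a gene of the sorting gate.

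Of 16 genes of selectin ligand glycosylation, 6 were higher and 2 lower in the HSC subsets, and 4 were higher and 4 lower in GMP than in MEP. Fut7 and Fut4, the fucosyltransferases that complete the sialyl Lewis x group on PSGL-1, averaged 13.16 and 8.78 in GMP and 9.05 and 4.87 in MEP, differences of 4.11 and 3.91 (limma adjusted p = 1.3e-07 and 2.28e-05). St3gal6, a sialyltransferase, went the other way, at 10.10 in MEP and well above background on 1 of the 3 GMP arrays, whose mean was 3.77 (limma adjusted p = 3.13e-07). St3gal3 was lower in the HSC subsets than in the myeloid populations by 2.37 (limma adjusted p = 0.000476), and St3gal6 and Fut7 were higher in the HSC subsets by 1.11 and 0.92 (limma adjusted p = 0.00413 and 0.000293).

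Of 20 genes for matrix ligands of integrins and CD44, 7 were higher and 1 lower in the HSC subsets, and 4 were higher and none lower in GMP than in MEP. Spp1, which encodes osteopontin, a ligand of α9, αv and CD44, was higher in the HSC subsets by 2.76 and in GMP by 2.86 (limma adjusted p = 2.12e-06 and 0.000166). Mfge8, an RGD-bearing ligand of αv integrins, was higher by 2.14 and 2.16 in the same comparisons (limma adjusted p = 1.5e-08 and 1.48e-06). Thbs1 was higher in the HSC subsets by 2.34 (limma adjusted p = 0.00652). Fn1, fibronectin itself, was not well above background in MEP and was at least 2.56-fold higher in GMP (limma adjusted p = 0.0063).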

How the data were processed

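The mRNA of 17 sorted bone marrow samples was read by the authors on Agilent single-color low input 4x44k arrays and scanned in 3 runs (scanners G2505B and G2505C, Feature Extraction 9.5.3.1 and 10.2.1.3). The deposited scanner files hold spot intensities, of which the background-subtracted, not yet normalized processed signal was used here. A deposited series table holds the authors' log2 values, matched to the scanner rows by order; quantile normalizing the log2 of the median signal gives them back to within 0.328. Their column medians are 6.40 to 6.42, so they are uncentred log2 levels, and no direction is open with 1 color.

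From the processed signal, log2 intensities were quantile normalized over all spots, 1639 control spots were then left out, flagged outlier spots were set missing (161 probe values), and spots of 1 probe were averaged (41174 probes). The probe with the highest mean stood for each of 28090 gene names, taken from the array design. limma 3.58.1 (R 4.3.3) was fitted with 1 mean per population, with quantile normalization and limma as the authors' methods state, and with empirical Bayes moderation and Benjamini-Hochberg adjustment over all gene names. The script was tested on simulated data. The number of arrays limits the precision. Samples were grouped by the population in their labels.

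The 30 genes, the lists beside them and the tests were chosen with earlier results of these data known. In each comparison, up to 5 genes in each direction with the largest differences among those that passed are given array by array, and the others by range and count. The named genes of each further list are up to 3 with the largest differences. One gene that this rule would name is not reported here. A few list genes were found under older names on the array (such as Esam as Esam1), and 1 GMP marker, Cebpe, under none. Alternatives were the 75th percentile in place of quantiles, normexp (offset 50), the authors' own values, leaving out dim probes, scanning run, slide and replicate number as blocks, the mean of all probes, and arrays left out. Markers for cell types were lists of fixed genes, and promoter letters came from RefSeq. No genome of the build of the probes was used, so probes are not placed in exons here.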

Additional observations from a re-analysis of the deposited data

How the results depend on the processing

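Counts of adhesion genes that passed kept within 1.5 times the reported count under most settings. For HSC subsets against myeloid populations, scanning run as a block gave 9 genes (8 higher, 1 lower) in place of 18 (15 and 3). Over all gene names it gave 2353 higher and 2167 lower in place of 6083 and 5355. The mean of all probes gave 5 adhesion genes lower, and 6125 of all gene names. For GMP against MEP, the count lower in GMP, 1 as reported, was 2 with the 75th percentile, the slide as a random block, the replicate block and the mean of all probes, 3 with normexp and the authors' table and 4 with the run as a block. Over all gene names the count lower in GMP, 2391 as reported, was 2323 to 3890 under these settings. For MPP against ST-HSC, the slide as a random block gave 10 genes in place of 6 (6 higher in place of 3). It gave 1143 of all gene names in place of 753. The authors' table, the run as a block and the replicate block gave 5 adhesion genes higher, and the mean of all probes 1 lower. For LT-HSC against ST-HSC, the count of 2, both lower, became 0 with the 75th percentile or the slide as a random block, 1 without dim probes, and 4 with the replicate block (2 higher), where LT-HSC rests on 1 array. With the mean of all probes 1 was higher. Of all gene names 1287 passed as reported, 559 with the 75th percentile and 456 with the slide as a random block.

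With 1 array left out at a time, the counts ran from 22 to 24 for the F-test, 17 to 19 for HSC subsets against myeloid populations (14 to 15 higher, 3 to 4 lower), 10 to 16 for GMP against MEP (10 to 15 higher, 0 to 1 lower), 4 to 8 for MPP against ST-HSC (2 to 4 in each direction) and 0 to 4 for LT-HSC against ST-HSC (0 to 2 in each direction). Among single genes, Itga3 turned to -0.20 for HSC subsets against myeloid populations with the run as a block. With the mean of all probes, Itgb1 turned to -0.53 in that comparison and Itga1 to 2.45 for GMP against MEP. Both passed there (limma adjusted p = 0.0209 and 3.37e-06). The other probes of Itgb1 and Itga1 read otherwise than the brightest.

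No label says that a replicate number marks a shared sort. Deviations of same-numbered samples correlated at 0.13 to 0.53 within a run (8 pairs, all also on 1 slide) and at -0.07 to 0.02 between runs (6 pairs). Differently numbered samples of 2 populations correlated at 0.08 to 0.33 in the same run (8 pairs, LT-HSC left out), which overlaps the first range, so whether numbers pair samples within a sort is not settled. The replicate block gave 15 genes for HSC subsets against myeloid populations, 18 for GMP against MEP, 8 for MPP against ST-HSC and 24 for the F-test. Over all gene names it gave 10503, 6795, 1080 and 13074 in that order. All 14 calls of GMP against MEP held under each alternative that kept all GMP and MEP arrays, other than the mean of all probes, which lost 2 (Itgb3 and Vcam1), and the loss of an array of another population, which could end that of Itga5. Signal over background limits the genes dim in MEP, GMP and LT-HSC.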
